A study of Mus musculus with 9 samples.

Results

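The proteasome genes of primary mouse microglia were compared across 3 treatments of the same duration. The genes were chosen by name: a symbol beginning with Psm, a letter from a to g and a digit, which took 50 of the 24411 genes in each count file. Primary microglia, per the labels, were shaken off mixed glial cultures grown for 2 weeks from brains of ICR pups (an outbred strain, aged 3 days), and were plated for 24 h before treatment. One group then received 1 µM R848 for 4 h, one received 100 U/ml IFN-α for 4 h, and one received both agents at those doses for 4 h, with 3 libraries in each group. No untreated group was analysed here, so each value is a difference between treatments and not a change from rest. The labels do not say whether replicates came from separate cultures, so p-values measure only how far these libraries differ, and that difference may be technical.

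The proteasome is the protease that degrades ubiquitin-tagged proteins. Its barrel, the 20S core, is built of α rings and β rings, and the β5, β1 and β2 subunits (genes Psmb5, Psmb6 and Psmb7) cut the substrate. Interferons are known to bring in a replacement for each of these: β5i (Psmb8) for β5, β1i (Psmb9) for β1 and β2i (Psmb10) for β2, which gives the immunoproteasome. The 19S cap (Psmc and most Psmd genes) recognises and unfolds ubiquitin-tagged proteins, whereas the PA28αβ cap (Psme1 and Psme2) opens the core without ubiquitin. Peptides from these particles are pumped by the transporter of Tap1 and Tap2 to MHC class I molecules. R848 (resiquimod) is a small-molecule agonist of TLR7, a sensor of single-stranded RNA, whereas IFN-α is a cytokine of the type I interferon family, sensed by a receptor on the cell surface.

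Read counts assigned to genes on the transcribed strand totalled 2817772 to 3298567 per library with R848, 2505941 to 2852960 with IFN-α and 2795385 to 6005578 with both agents. Levels are given as CPM, read counts brought to a common library total and scaled by TMM factors, which correct for differences in library composition. A gene was called when edgeR's quasi-likelihood test gave a Benjamini-Hochberg adjusted p under 0.05 over the 11002 genes tested, and each log2 fold change is given with its approximate standard error (SE). The labelled cell type was checked against marker genes: the summed level of 12 microglial markers was 2980 to 3293 CPM with R848, 4058 to 4275 CPM with IFN-α and 3028 to 3441 CPM with both. Its members went both ways: with R848 against IFN-α, 2 of the 12 were called higher and 5 lower, with log2 fold changes from -4.06 to 0.94. With both agents, 3 were called higher and 4 lower than with R848, and 2 higher and 6 lower than with IFN-α. In the same order, the shares of all genes tested called higher and lower were 18.4% and 19%, 19.2% and 16.7%, and 18.5% and 14.7%. P2ry12, a receptor of resting microglia, was at 1.77 to 2.83 CPM with R848, 38.2 to 43.6 CPM with IFN-α and 5.59 to 12.6 CPM with both, and Tmem119, a marker of resident microglia, reached at most 4.09 CPM. The 9 astrocyte markers summed to 1440 to 1697 CPM with R848, 1141 to 1442 CPM with IFN-α and 2368 to 3413 CPM with both. All 9 were called higher with both agents than with R848 (19.2% of all genes tested), and 5 were called higher than with IFN-α (18.5% of all genes). The 7 oligodendrocyte markers summed to 386 to 507 CPM, the 6 neuronal ones to 132.5 to 173 CPM and the 6 fibroblast and mural ones to 96.2 to 228 CPM over all libraries. The 6 endothelial markers summed to 17 to 20.7 CPM with R848, 50.01 to 65.2 CPM with IFN-α and 38.3 to 54.8 CPM with both. The 3 that were tested (Cdh5, Kdr and Flt1) were all called higher with both agents than with R848. Against IFN-α, 1 of them was called higher with both agents and 1 lower, with log2 fold changes from -2.56 to 0.96. Pecam1, Cldn5 and Tek reached at most 1.11 CPM. The B-cell gene Cd79a, the neutrophil gene S100a9 and the cytotoxic-cell gene Nkg7 were at 0 in all 9 libraries. The part of these marker differences in the results was not tested, and in bulk RNA fewer cells of a type and less RNA per cell cannot be told apart.

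The promoter stretches below are shown because they hold the motif matches found in the interferon-inducible genes and in the constitutive genes these replace, with the match in capitals. They come from RefSeq windows of assembly GRCm38.p6, which were given for 42 of the 50 genes and run from 250 bases before to 50 after an annotated start. Each is printed 5′ to 3′ on the gene's strand, and positions are counted from 0 at the annotated start.
Psmb8, chr17:34198088-34198117, plus strand: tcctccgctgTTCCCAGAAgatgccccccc
Psme1, chr14:55578493-55578522, plus strand: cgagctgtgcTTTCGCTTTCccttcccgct
Psmb5, chr14:54618010-54618070, minus strand: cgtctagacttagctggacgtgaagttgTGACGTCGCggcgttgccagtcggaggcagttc
Psmb6, chr11:70525297-70525367, plus strand: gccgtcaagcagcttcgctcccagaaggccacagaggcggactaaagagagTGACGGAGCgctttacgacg
The Psmb8 match is to the interferon-gamma-activated site (GAS, TTCNNNGAA) at positions -97 to -89, and the Psme1 match is to the core of the interferon-stimulated response element (ISRE, GAAANNGAAA, here on the opposite strand) at positions 9 to 18. Both lie within the span of their gene in GENCODE M21, which begins at 34197721 for Psmb8 and at 55578123 for Psme1. The Psmb5 and Psmb6 matches are to the core of the antioxidant response element (ARE, TGACNNNGC), the motif of the NRF1 and NRF2 factors, at -47 to -39 and at -9 to -1.

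Both strands were searched for each motif. Proteasome genes were counted once if any of their windows matched (45 windows for 42 genes), whereas the percentages are shares of windows. The ISRE core was found in 1 of the 5 interferon-inducible genes (Psmb8, Psmb9, Psmb10, Psme1 and Psme2), in 4 of the other 37 genes with a window and in 3.44% of all 32851 promoter windows. GAS was found in 1 of the 5, in 2 of the 37 and in 8.30% of all windows. The κB motif of NF-κB (GGGNNNTTCC) was found in 0 of the 5, in 3 of the 37 and in 5.55% of all windows, and the ARE core in 0 of the 5, in 6 of the 37 and in 12.4% of all windows. The motifs differ in their letters, and overlaps between matches of different motifs were not merged. A match is a description of the sequence, and a window without one lacks only these letters.

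The 3 catalytic subunits of the immunoproteasome were lowest with R848 alone and were several-fold higher in both groups that received IFN-α. Psmb9, which lies beside Tap1 on chromosome 17 (34181987 to 34187764, minus strand, GRCm38) and encodes β1i, was at 13.8, 13.9 and 14.2 CPM with R848, at 144.9, 146 and 151 CPM with IFN-α and at 120.4, 129.8 and 123 CPM with both. No group overlapped another. It was 10.5-fold lower with R848 than with IFN-α (log2 fold change -3.40, SE 0.12, edgeR adjusted p = 2.58e-20) and 8.90-fold higher with both agents than with R848 (3.15, SE 0.12, edgeR adjusted p = 2.19e-19). With both agents it was slightly lower than with IFN-α alone (-0.24, SE 0.09, edgeR adjusted p = 0.0465), and that call was lost in 12 of 18 alternative settings, with adjusted p from 0.000598 to 0.142 over them. Psmb9 and Tap1 are divergent and overlap on opposite strands in GENCODE M21, where the counted strand separates their reads.

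Psmb10, on chromosome 8 (105935735 to 105938444, minus strand), encodes β2i and was at 59.3, 52.6 and 56.9 CPM with R848. It was at 249, 239 and 249.7 CPM with IFN-α and at 267, 266 and 279 CPM with both. The R848 libraries stood apart from the others, and the combined group lay just above the IFN-α group without overlap. Psmb10 was 4.37-fold lower with R848 than with IFN-α (log2 fold change -2.13, SE 0.10, edgeR adjusted p = 1.11e-17) and 4.81-fold higher with both agents than with R848 (2.27, SE 0.10, edgeR adjusted p = 2.43e-18). Between both agents and IFN-α it was not called (0.14, 95% interval -0.04 to 0.32, edgeR adjusted p = 0.243).

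Psmb8, on chromosome 17 (34197721 to 34201454, plus strand), encodes β5i, whose promoter stretch with the GAS match is printed above. It was at 10.1, 8.82 and 6.19 CPM with R848, at 25.8, 24.5 and 20.9 CPM with IFN-α and at 26.0, 25.8 and 33.8 CPM with both. The R848 group lay below both others, which overlapped each other. It was 2.82-fold lower with R848 than with IFN-α (log2 fold change -1.49, SE 0.21, edgeR adjusted p = 7.03e-07) and 3.47-fold higher with both than with R848 (1.796, SE 0.20, edgeR adjusted p = 1.34e-08). The difference between both agents and IFN-α was not called (0.30, 95% interval -0.06 to 0.66, edgeR adjusted p = 0.196). The 3 catalytic genes together summed to 75.3 to 83.2 CPM with R848, 409.8 to 422 CPM with IFN-α and 413 to 436 CPM with both.

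**Figure D1:**
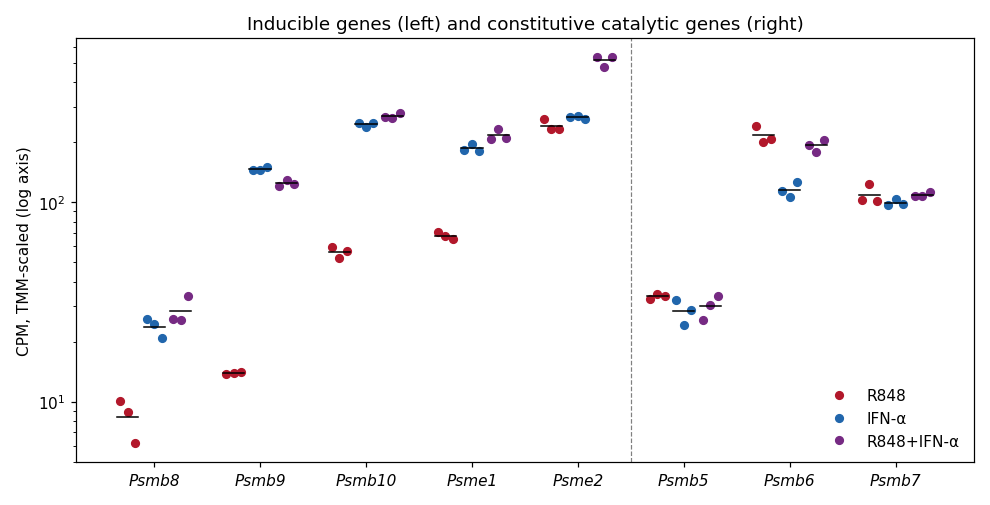
Level of 8 genes in each library (TMM-scaled CPM, log axis), with a dot per library in the colour of its treatment and a black bar at each group's mean (n = 3). Left of the dashed line are the 5 interferon-inducible genes and right of it the 3 constitutive catalytic genes: the R848 dots of Psmb8, Psmb9, Psmb10 and Psme1 lie below both other groups, Psme2 is highest with both agents, and Psmb6 is lowest with IFN-α.

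The constitutive catalytic subunits did not mirror this pattern as a group. Psmb6, which encodes β1, was at 241, 200.3 and 209 CPM with R848, at 114, 107 and 127 CPM with IFN-α and at 194, 179 and 206 CPM with both. The IFN-α libraries lay below all others, while the R848 and combined groups overlapped. Psmb6 was 1.87-fold higher with R848 than with IFN-α (log2 fold change 0.90, SE 0.10, edgeR adjusted p = 1.10e-08) and 1.67-fold higher with both agents than with IFN-α (0.74, SE 0.10, edgeR adjusted p = 8.34e-07). Both agents against R848 gave -0.16 (95% interval -0.36 to 0.04), which was not called.

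Psmb7 and Psmb5 were called in none of the 3 comparisons. Psmb7, which encodes β2, had means of 109 ± 12.5, 99.4 ± 3.64 and 109 ± 2.68 CPM (SD, n = 3) with R848, IFN-α and both, and the 95% interval of its log2 difference between R848 and IFN-α was -0.08 to 0.34. Psmb5, which encodes β5, had means of 33.7 ± 1.06, 28.4 ± 4.13 and 30.1 ± 4.20 CPM, with an interval of -0.07 to 0.56. The Psmb5 count is uncertain, because 54.1% of its 50-base stretches also occur in transcripts of other genes, among them its pseudogene Psmb5-ps, and reads that map to several places are not counted.

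The ratio of each inducible gene to the one it replaces, taken per kilobase of annotated exon in each library, separated R848 from the other groups for all 3 pairs. Psmb9 to Psmb6 was 0.0293, 0.0354 and 0.0347 with R848, 0.652, 0.700 and 0.608 with IFN-α and 0.317, 0.371 and 0.306 with both. No group overlapped another, and the mean ratio with both agents was 0.507 of that with IFN-α, where Psmb9 was slightly lower and Psmb6 was higher. Psmb10 to Psmb7 was 1.16, 0.855 and 1.13 with R848, 5.19, 4.64 and 5.09 with IFN-α and 4.99, 4.94 and 4.99 with both. The means of the IFN-α and combined groups were 4.75 and 4.74 times the R848 mean.

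Psmb8 to Psmb5 was 0.0824, 0.0677 and 0.0486 with R848, 0.212, 0.2699 and 0.193 with IFN-α and 0.2698, 0.225 and 0.264 with both. The IFN-α and combined groups overlapped. With the length of the longest principal coding transcript in place of all annotated exon, the mean Psmb8 to Psmb5 ratios were 0.138, 0.467 and 0.525, the Psmb9 to Psmb6 ratios 0.0382, 0.754 and 0.383, and the Psmb10 to Psmb7 ratios 0.462, 2.19 and 2.19, in the order R848, IFN-α and both. So whether Psmb10 exceeded Psmb7 with R848 depended on the length used, while the folds between treatments did not. These ratios are given as a description and were not tested.

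**Figure D2:**
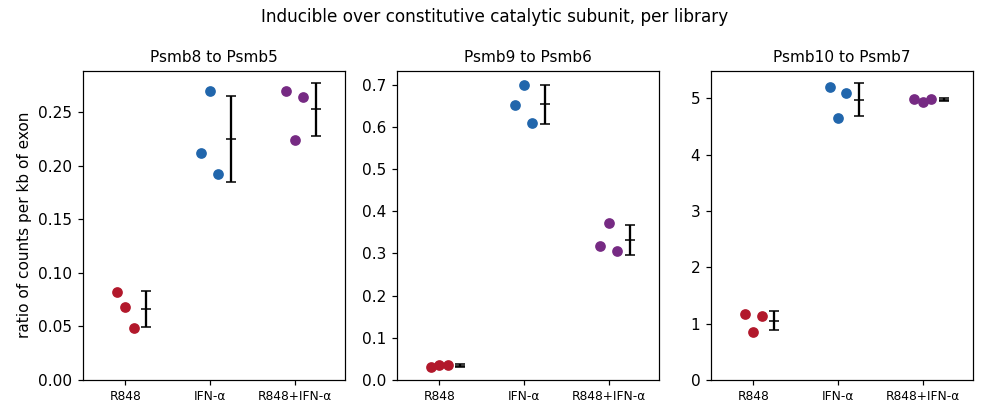
Ratio of each interferon-inducible catalytic gene to its constitutive counterpart, per kilobase of annotated exon, with a dot per library and the group mean ± SD (n = 3) beside the dots; each panel has its own axis from 0. The R848 ratios are the lowest in every panel, and only Psmb9 to Psmb6 is lower with both agents (mean 0.332) than with IFN-α (mean 0.653) without overlap.

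The PA28αβ cap split into a gene that followed the catalytic subunits and one that did not. Psme1, on chromosome 14 (55578123 to 55581529, plus strand), encodes PA28α and was at 70.6, 67.4 and 65.2 CPM with R848, at 184, 196 and 180.4 CPM with IFN-α and at 209, 234 and 209.7 CPM with both. The 3 groups did not overlap. It was 2.76-fold lower with R848 than with IFN-α (log2 fold change -1.46, SE 0.10, edgeR adjusted p = 1.63e-13) and 3.21-fold higher with both than with R848 (1.68, SE 0.10, edgeR adjusted p = 6.75e-15). Both agents against IFN-α gave 0.22 (SE 0.09, edgeR adjusted p = 0.0708), which was not called, and passed the threshold without R848 replicate 1 (adjusted p = 0.0245).

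Psme2, which encodes PA28β, lies 13.0 kb from Psme1 and 12.5 kb from Irf9 by annotated starts. It was at 261, 233 and 233.5 CPM with R848, at 267.5, 272 and 263 CPM with IFN-α and at 533, 478 and 535 CPM with both. The single-agent groups lay close together and the combined group stood above them. Psme2 was 2.13-fold higher with both agents than with R848 (log2 fold change 1.09, SE 0.09, edgeR adjusted p = 7.06e-12) and 1.93-fold higher than with IFN-α (0.95, SE 0.09, edgeR adjusted p = 2.04e-10). The test against both single agents together passed as well (edgeR adjusted p = 8.38e-10). R848 against IFN-α gave -0.14 (95% interval -0.32 to 0.04, edgeR adjusted p = 0.220), which was called without R848 replicate 1 (adjusted p = 0.0314).

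The ratio of Psme2 to Psme1 per kilobase of exon was 4.63, 4.34 and 4.49 with R848, 1.82, 1.73 and 1.82 with IFN-α and 3.20, 2.56 and 3.19 with both. The 3 groups did not overlap, and the ratio was not tested. Psme2b, a near copy of Psme2 on chromosome 11, was at 2.88, 2.20 and 1.18 CPM with R848, at 33.5, 27.4 and 32.3 CPM with IFN-α and at 28.3, 31.4 and 26.8 CPM with both. It was 14.6-fold lower with R848 than with IFN-α (log2 fold change -3.87, SE 0.25, edgeR adjusted p = 7.16e-14). Its count is uncertain: 69.3% of its 50-base stretches also occur in other genes, Psme2 among them, and 28.3% of those of Psme2 do. In GENCODE M21, 41 bases of Psme2b exon also overlap 9930111J21Rik1 on the same strand.

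Across the 5 inducible genes, R848 against IFN-α gave 0 calls higher and 4 lower, with a median log2 fold change of -1.50 (range -3.40 to -0.14). Over all genes tested, 18.4% were called higher and 19% lower in that comparison, with a median of 0.02. No gene of the 5 was higher at an unadjusted p under 0.05 or with DESeq2. With both agents against R848, 5 of 5 were called higher with a median of 1.796, where 19.2% of all genes were called higher, 16.7% lower and the median was -0.03. With both agents against IFN-α, 1 was called higher and 1 lower with a median of 0.22, where the shares over all genes were 18.5% and 14.7% and the median -0.01. These comparisons share libraries and are not independent of each other.

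The 43 other genes that were tested had medians nearer 0 in both comparisons with R848 alone, though Psme2b reached further there than any of the 5 inducible genes (-3.87 and 3.75). With R848 against IFN-α, 14 (32.6%) were called higher and 6 (13.95%) lower, with a median log2 fold change of 0.14. With both agents against R848, 10 (23.3%) were called higher and 8 (18.6%) lower, with a median of -0.14. With both agents against IFN-α, 11 (25.6%) were called higher and 1 (2.33%) lower, with a median of 0.19, close to the 0.22 of the 5 inducible genes, and a range of -0.48 to 1.15. Over all 48 tested genes, both agents against R848 gave 15 higher and 8 lower, which became 12 and 17 with upper-quartile factors and 8 and 25 with libraries scaled by their totals alone. Both agents against IFN-α gave 12 and 2, which became 8 and 2 and then 4 and 7, and without R848 replicate 1 the number higher was 19. Among the 3 treatments as a whole, 31 of the 48 tested genes differed by edgeR's test of all 3 means, where 50.3% of all genes tested did.

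**Figure D3:**
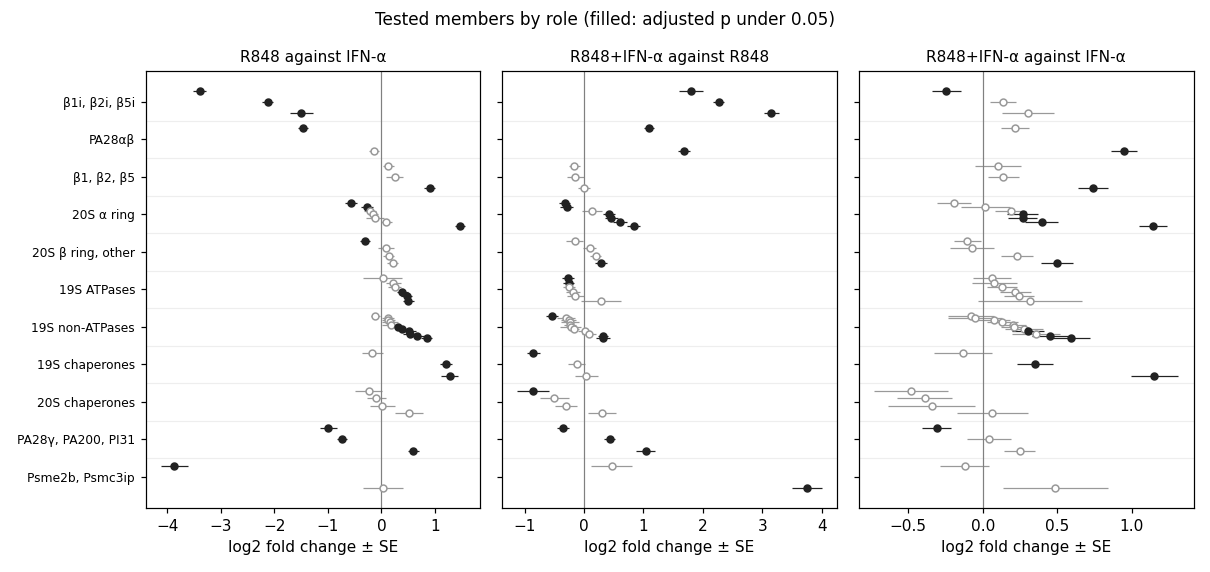
Log2 fold change ± SE of each of the 48 tested genes in the 3 comparisons, grouped by role and ordered by value within a role; filled dots passed an adjusted p of 0.05 in edgeR's test and the panels have different axes. The β1i, β2i and β5i genes lie far left with R848 against IFN-α (-3.40 to -1.49) and far right with both agents against R848 (1.796 to 3.15), whereas the 19S genes lie between -0.12 and 0.85 and between -0.54 and 0.32.

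In the α rings of the core, which gate entry to the chamber, Psma6 differed most. It was at 260.1, 274 and 278 CPM with R848, at 94.8, 104 and 93.7 CPM with IFN-α and at 221, 206 and 220.1 CPM with both. The 3 groups did not overlap, and IFN-α alone was lowest. It was 2.78-fold higher with R848 than with IFN-α (log2 fold change 1.47, SE 0.09, edgeR adjusted p = 3.35e-14) and 2.21-fold higher with both agents than with IFN-α (1.15, SE 0.09, edgeR adjusted p = 2.55e-11). With both agents it was lower than with R848 alone (-0.33, SE 0.09, edgeR adjusted p = 0.00390).

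Psma5 ran the other way, with means of 62.6 ± 2.58, 92.8 ± 4.36 and 111 ± 9.50 CPM (SD, n = 3) with R848, IFN-α and both. It was lower with R848 than with IFN-α (log2 fold change -0.57, SE 0.11, edgeR adjusted p = 7.52e-05) and 1.78-fold higher with both than with R848 (0.83, SE 0.11, edgeR adjusted p = 1.56e-07). The smaller difference of both agents against IFN-α (0.27) was lost or reversed in 12 of 18 settings, and 49.96% of the 50-base stretches of Psma5 also occur in other genes. Psma3 had means of 137 ± 27.0, 158 ± 13.3 and 208 ± 4.75 CPM. It was higher with both agents than with either alone (0.60 against R848 and 0.40 against IFN-α, edgeR adjusted p = 0.0176 for the joint test). With Psme2 it made up the 2 of 48 genes called higher in that joint test, where 7.33% of all genes tested were higher and 2.82% lower. None of the 48 was called lower by edgeR's joint test, at an unadjusted p under 0.05 or with DESeq2.

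Among the other α-ring genes, Psma2 was called higher with both agents than with R848 (log2 fold change 0.42) and than with IFN-α (0.27, lost in 6 of 18 settings and reversed to -0.04 when libraries were scaled by their totals alone). Psma4 was called lower with R848 than with IFN-α (-0.27, lost in 12 of 18 settings) and higher with both agents than with R848 (0.46). Psma1 was called lower with both agents than with R848 (-0.29, lost in 8 of 18 settings), and Psma7 was not called in any comparison. In the β rings, Psmb1 was called lower with R848 than with IFN-α (-0.30, lost in 2 of 18), and Psmb4 was called higher with both agents than with IFN-α (0.50) and with R848 (0.29, lost in 5 of 18 and reversed to -0.10 under library totals). Psmb2 and Psmb3 were not called. In comparisons of one treatment with another, calls of proteasome genes given without such a tally were lost in at most 1 of the settings. The calls of the joint test also depended on the settings, as given with the processing alternatives below.

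Over the 14 constitutive core genes, R848 against IFN-α gave 2 calls higher and 3 lower (median log2 fold change 0.09), and 5 were called higher and 2 lower with both agents than with R848 (0.11). Both agents against IFN-α gave 6 higher and 0 lower (0.21), and 0 were lower at an unadjusted p under 0.05 or with DESeq2. As shares of the 14, these were 14.3% higher and 21.4% lower between the single agents, near the 18.4% and 19% of all genes tested, then 35.7% and 14.3%, where all genes gave 19.2% and 16.7%, and 42.9% higher against IFN-α, where all genes gave 18.5%. These splits depended on scaling. With upper-quartile factors they were 3 higher and 2 lower, 4 and 3, and 4 and 0, and with library totals alone 2 and 1, 1 and 6, and 2 and 2. Library totals moved the median log2 fold change of all genes to 0.10, -0.42 and -0.32 in these comparisons, and upper-quartile factors moved it to 0.07, -0.17 and -0.09.

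The genes of the 19S cap were either higher with R848 than with IFN-α or not called. Of the 17, 9 were called higher and 0 lower (median log2 fold change 0.31, range -0.12 to 0.85), so 52.9% were higher where 18.4% of all genes tested were called higher and 19% lower. The count higher was 9 under every scaling and 8 with DESeq2. None was lower at an unadjusted p under 0.05 or with DESeq2. Among the ATPases, which form the unfolding ring, Psmc1 (0.39), Psmc2 (0.48) and Psmc4 (0.50) were called higher, and Psmc3, Psmc5 and Psmc6 were not called. Psmc5 was measured at only 4.93, 4.81 and 5.85 CPM on average with R848, IFN-α and both.

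Of the 11 non-ATPase genes, 6 were called higher with R848 than with IFN-α. Psmd11, a scaffold subunit of the lid, was at 127, 139.5 and 138 CPM with R848, at 69.8, 74.6 and 80.1 CPM with IFN-α and at 95.2, 102.7 and 82.3 CPM with both. The 3 groups did not overlap. It was 1.799-fold higher with R848 than with IFN-α (log2 fold change 0.85, SE 0.11, edgeR adjusted p = 9.71e-08) and lay between them with both agents (-0.54 against R848, edgeR adjusted p = 1.05e-04). Psmd14, the deubiquitinase that removes the tag, had means of 85.9 ± 13.3, 59.7 ± 6.29 and 90.8 ± 6.11 CPM (SD, n = 3) with R848, IFN-α and both. It was higher with R848 than with IFN-α (0.52, SE 0.12, edgeR adjusted p = 0.00105) and with both agents than with IFN-α (0.60, SE 0.12, edgeR adjusted p = 3.03e-04).

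The base subunits Psmd1 (log2 fold change 0.66) and Psmd2 (0.38), the lid subunit Psmd3 (0.54) and the ubiquitin receptor Psmd4 (0.30, lost in 4 of 18 settings) were also called higher with R848 than with IFN-α. Psmd6, Psmd7, Psmd8, Psmd12 and Psmd13 were not. For the whole cap, 2 genes were called higher and 3 lower with both agents than with R848 (median -0.23), or 11.8% and 17.6%, which is not above the 19.2% and little above the 16.7% of all genes. The higher ones were Psmd12 (0.32, lost in 8 of 18 settings and reversed to -0.07 under library totals) and Psmd8 (0.32, lost in 1 and reversed to -0.06 likewise). The lower ones were Psmd11, Psmc1 (-0.27, lost in 6 of 18 settings) and Psmc4 (-0.26, lost in 10 of 18). That split was 0 and 10 with upper-quartile factors and 0 and 13 with library totals. Both agents against IFN-α gave 3 called higher and 0 lower (median 0.21), against 9 and 0 at an unadjusted p under 0.05 and 2 and 0 with DESeq2; with library totals the split was 0 and 0. The 3 made up 17.6% of the cap, near the 18.5% of all genes, and were Psmd14, Psmd12 (0.45) and Psmd11 (0.30, lost in 7 of 18 and reversed to -0.004 under library totals).

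**Figure D4:**
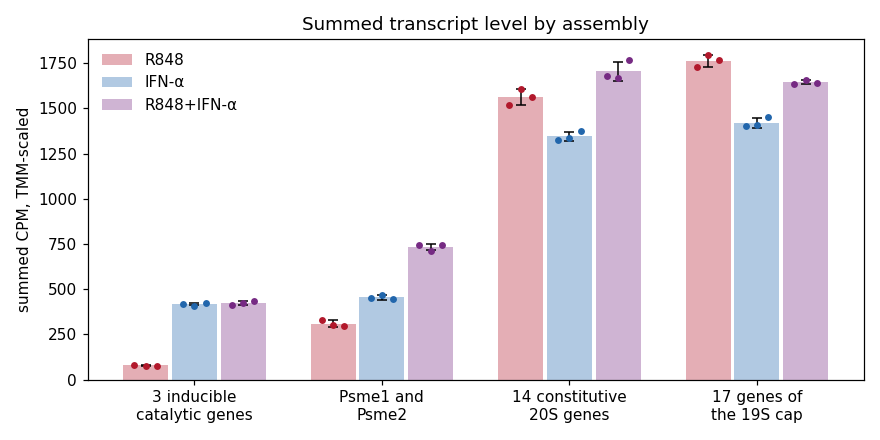
Summed TMM-scaled CPM of 4 sets of genes in each treatment, with bars at the group mean, error bars of ± SD and a dot per library (n = 3). On this TMM scale, the inducible catalytic genes are low only with R848 (mean 78.6 against 417 and 424 CPM), Psme1 and Psme2 are highest with both agents (mean 733 CPM), and the 14 core genes and the 17 cap genes are lowest with IFN-α (means 1347 and 1419 CPM).

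The summed levels put these differences side by side. The 5 inducible genes summed to 389 ± 22.3 CPM with R848, 871 ± 6.64 CPM with IFN-α and 1157 ± 23.4 CPM with both (SD, n = 3). The 14 constitutive core genes summed to 1563 ± 43.3, 1347 ± 24.0 and 1705 ± 54.1 CPM, and the 17 cap genes to 1762 ± 33.5, 1419 ± 27.7 and 1645 ± 11.8 CPM. For each of the 3 sums the libraries of 1 treatment did not overlap those of another. Over all 50 genes the sums were 4220 ± 67.9, 4160 ± 67.7 and 5033 ± 75.3 CPM, so on this scale R848 and IFN-α alone gave similar totals of different make-up, with overlapping libraries (4151 to 4286 and 4095 to 4230 CPM). All these sums depend on scaling: the TMM factors were 1.05 to 1.17 with R848, 0.954 to 1.11 with IFN-α and 0.832 to 0.892 with both. The order of the groups and the lack of overlap are given under TMM scaling alone, and need not hold with library totals.

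The largest differences in favour of R848 among the assembly factors were in chaperones of the 19S base. Psmd5, which encodes the chaperone S5b, was at 95.9, 93.2 and 93.7 CPM with R848, at 41.3, 40.7 and 40.8 CPM with IFN-α and at 55.4, 46.4 and 53.8 CPM with both. The 3 groups did not overlap, and addition of IFN-α to R848 went with a level nearer to that of IFN-α. Psmd5 was 2.30-fold higher with R848 than with IFN-α (log2 fold change 1.20, SE 0.12, edgeR adjusted p = 5.05e-10) and 1.81-fold lower with both agents than with R848 (-0.85, SE 0.11, edgeR adjusted p = 2.83e-07). Against IFN-α it was higher with both agents (0.35), a call lost in 9 of 18 settings.

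Psmd10, which encodes gankyrin, was at 49.0, 79.98 and 74.0 CPM with R848, at 25.8, 26.7 and 30.7 CPM with IFN-α and at 65.1, 62.8 and 58.8 CPM with both. The IFN-α libraries lay below all others, and the R848 and combined groups overlapped. It was 2.42-fold higher with R848 than with IFN-α (log2 fold change 1.28, SE 0.16, edgeR adjusted p = 6.80e-08) and 2.23-fold higher with both than with IFN-α (1.15, SE 0.16, edgeR adjusted p = 8.70e-07). Both agents against R848 gave -0.12, which was not called and passed the threshold without R848 replicate 1, the lowest R848 library for this gene. The third chaperone, Psmd9, was not called in any comparison. Of the 4 chaperones of the 20S core, Psmg3 was called lower with both agents than with R848 (-0.85, SE 0.27, edgeR adjusted p = 0.0132), a call lost without R848 replicate 1 and without replicates 1 or 3 of the combined group, and Psmg1, Psmg2 and Psmg4 were not called.

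The remaining activators and the inhibitor each differed between R848 and IFN-α. Psmf1, which encodes the inhibitor PI31, was at 30.8, 23.9 and 22.99 CPM with R848, at 45.1, 51.9 and 57.9 CPM with IFN-α and at 64.3, 43.8 and 51.6 CPM with both. The R848 libraries lay below all others, while the IFN-α and combined groups overlapped. It was 1.99-fold lower with R848 than with IFN-α (log2 fold change -0.996, SE 0.16, edgeR adjusted p = 5.35e-06) and 2.05-fold higher with both than with R848 (1.04, SE 0.16, edgeR adjusted p = 3.15e-06).

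Psme4, which encodes the activator PA200, was at 125, 128 and 151 CPM with R848, at 209.7, 231 and 232 CPM with IFN-α and at 165, 186 and 191 CPM with both. The 3 groups did not overlap, and the combined group lay between the single agents. Psme4 was 1.67-fold lower with R848 than with IFN-α (log2 fold change -0.74, SE 0.10, edgeR adjusted p = 2.82e-07). It was higher with both agents than with R848 (0.43) and lower than with IFN-α (-0.31, lost in 3 of 18 settings), both called. Psme3, which encodes the nuclear activator PA28γ, went the opposite way to Psme4, with means of 109.6 ± 2.39, 72.3 ± 2.81 and 85.9 ± 6.58 CPM (SD, n = 3) with R848, IFN-α and both. It was 1.52-fold higher with R848 than with IFN-α (0.60, SE 0.10, edgeR adjusted p = 1.89e-05) and lower with both than with R848 (-0.35, SE 0.10, edgeR adjusted p = 0.00669).

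Psma8 and Psmb11, subunits of the testis and thymus forms of the core, did not pass the filter on low counts. Psma8 had 5, 11 and 2 reads in all with R848, IFN-α and both, and Psmb11 had 1 read in each group. Psmc3ip matched the naming rule but encodes a recombination factor and not a subunit. It was not called in any comparison, with means of 4.15, 4.11 and 5.56 CPM.

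The neighbouring genes of peptide supply and of interferon signalling were read from the same fit. Of the 10 reported here, R848 against IFN-α gave lower calls for all 10 (median log2 fold change -1.60), both agents against R848 gave higher calls for all 10 (2.39), and with both agents against IFN-α 7 were called higher and 3 were not called (0.42). Over all genes tested, 19% were called lower with R848 than with IFN-α. With both agents, 19.2% of all genes were called higher than with R848 and 18.5% higher than with IFN-α. Tap1, the transporter gene divergent from Psmb9, had mean levels of 30.8, 400.3 and 645 CPM after R848, IFN-α and both. It was called higher with both agents than with IFN-α (0.69, edgeR adjusted p = 6.74e-07), where Psmb9 was slightly lower. The ratio of Psmb9 to Tap1 per kilobase of exon was 0.552, 0.7003 and 0.835 with R848, 0.5404, 0.512 and 0.606 with IFN-α and 0.271, 0.323 and 0.276 with both. The combined group lay below both others, which overlapped.

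Tap2, on the far side of Psmb8 in the same 34.3 kb, was called in all 3 comparisons (log2 fold change -1.68, 2.36 and 0.68 for R848 against IFN-α, both against R848 and both against IFN-α). In the same order, Irf1, a transcription factor gene, gave -1.45, 2.86 and 1.41, and Nlrc5, the class I transactivator, gave -3.83, 4.25 and 0.42, all called. Irf9, which sits with Psme1 and Psme2 in 31.9 kb of chromosome 14, gave -1.47 and 1.72, both called, and 0.25, which was not (edgeR adjusted p = 0.0525). Of the proteasome and neighbouring genes of these clusters, Psmb8, Psmb9, Tap1, Tap2, Psme1 and Irf9 were called between the single agents, and Psme2 was not.

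Proteasome and shuttle genes whose symbols lie outside the naming rule were read from the same fit. Of 21 tested, 9 (42.9%) were called higher and 4 (19.05%) lower with R848 than with IFN-α, where 18.4% and 19% of all genes were. With both agents, 2 (9.52%) were higher and 8 (38.1%) lower than with R848, where all genes gave 19.2% and 16.7%, and 5 (23.8%) were higher and 2 (9.52%) lower than with IFN-α, where all genes gave 18.5% and 14.7%. Nfe2l1, which encodes NRF1, a transcription factor of proteasome genes, gave log2 fold changes of 1.53, -0.39 and 1.14 for R848 against IFN-α, both against R848 and both against IFN-α, all called. In that order, Fbxo7, whose product binds PI31, gave -1.62, 1.29 and -0.33, of which the last was not called, and Pomp, the maturation factor of the core, gave -0.39, 0.62 and 0.22, of which the last was not called. Usp14, a deubiquitinase of the 19S cap, gave 0.77, -0.39 and 0.37, and Adrm1, a ubiquitin receptor of the cap, gave 0.74, -0.38 and 0.36, with the last of Adrm1 not called. Uchl5 went the other way, with -0.76, 0.42 and -0.34, of which only the first was called. Nfe2l2, which encodes NRF2, gave 0.83, 0.05 and 0.88, with the middle value not called. Zfand2a gave -0.39, -0.43 and -0.82, all called, and was called lower in the joint test against both single agents.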

How the data were processed

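The authors deposited raw read counts by gene (whole numbers), 1 file a library, in an unstranded, a forward and a reverse column. Build mm10 and the tools STAR 2.5.1, Trimmomatic 0.33, CASAVA 1.8.2 and DESeq2 are named per the submitters' processing notes, and the gene annotation used for counting is not given in these sources. Libraries were directional and depleted of ribosomal RNA, per the labels' protocols. The reverse-strand column was used, since forward counts made up 1.09% to 1.50% of both. Rows that name no gene were left out of totals: reads in no gene made up 39.3% to 44.4% and unmapped ones 19.8% to 26.3%. The ribosomal transcript Rn45s held 13.4% to 26.1% of gene counts.

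Genes were filtered with filterByExpr (minimum count 10, minimum total 15), scaled with TMM and fitted on all 9 libraries by robust quasi-likelihood in R 4.3.3 (limma 3.58.1, edgeR 4.0.16). SEs were taken as the size of the log2 fold change over the root of F, and 95% intervals follow from them. A gene counted as beyond both single agents where it differed from each in the same direction and the larger p-value passed after adjustment. The fit was tested on simulated data, with changes set in genes drawn at random. Of 100 genes with a log2 change of 1 in each comparison, 72 to 78 were called in the right direction. Of 100 with a change of 0.5, 27 to 31 were, and 4 to 8 of the 105 to 113 calls were false. A gene that was not called may still differ by such amounts. DESeq2 1.42.0, other scalings and filters, the unstranded column, a replicate block and leaving out each library were the alternatives. Positions and exon lengths come from GENCODE M21. Genes, lists and the rule for named genes (every gene matching the pattern, and of the other lists at most 6 called genes per comparison with Tap1, Tap2, Irf9, Irf1, Nlrc5 and Pomp always) were chosen with earlier results of these data known. One gene of the list of peptide supply and interferon signalling is not reported here, and the counts for that list leave it out. Counts limit the precision for low genes, and intervals cover the spread between these libraries.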

Additional observations from a re-analysis of the deposited data

How the results depend on the processing

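Of 18 alternatives, all kept the 4 calls of the inducible genes between R848 and IFN-α and the 5 between both agents and R848. Over the 48 tested genes, 21 of 24 calls between R848 and IFN-α were kept in every alternative, 12 of 23 between both agents and R848, and 4 of 14 between both agents and IFN-α (Psma6, Psmb6, Psmd10 and Psme2). Leaving out Rn45s changed no call.

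With both agents against R848, 15 genes were higher and 8 lower; library totals alone gave 8 and 25, upper-quartile factors gave 17 lower and DESeq2 gave 5 lower. With both agents against IFN-α, 12 were higher and 2 lower; library totals gave 4 and 7, and RLE factors, DESeq2, no filter and the replicate block each gave 1 lower. Beyond both single agents, 2 were higher and 0 lower; upper-quartile factors gave 1 higher, and library totals 1 higher and 3 lower. Library totals also reversed Psmb4 (-0.10), Psmb7 and Psmd6 (-0.385 and -0.384, both near 0 under TMM), Psmd8 (-0.064) and Psmd12 (-0.068) in both agents against R848, and Psma2 (-0.039), Psma5 (-0.046) and Psmd11 (-0.004) in both agents against IFN-α, together with the shift of all genes given with the core genes.

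Leaving out 1 library at a time gave 4 to 11 lower in both agents against R848 (4 without replicate 3 of the combined group), 9 to 19 higher (19 without R848 replicate 1) and 0 to 2 lower in both agents against IFN-α, and 1 to 5 higher beyond both (5 without R848 replicate 1). Replicate numbers did not pair the libraries: same-numbered libraries' deviations correlated at -0.10 to 0.06, and not every library correlated best with its own number. With the number as a replicate block, 14 genes were higher and 9 lower with R848 than with IFN-α, 15 and 8 with both against R848, and 11 and 1 with both against IFN-α, losing Psma4, Psma5 and Psmb9. At 2505941 to 6005578 counts per library, genes near 5 CPM such as Psmc5 and Psmc3ip had SEs of 0.34 to 0.37. Differences of that size were not detectable there, and larger ones could be missed as well. Psmc3ip with both agents against R848 gave 0.46 (SE 0.34, interval -0.23 to 1.16, edgeR adjusted p = 0.306), which was not called.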

Other observations

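Psma6 lies 71.0 kb from Nfkbia on chromosome 12, with a gap that runs from 55418454 to 55489410 in GRCm38. Nfkbia, which encodes the NF-κB inhibitor IκBα and was looked up after the values of Psma6 had been seen, had means of 523 ± 52.9, 54.1 ± 4.59 and 581 ± 3.60 CPM (SD, n = 3) with R848, IFN-α and both. It was called higher with R848 than with IFN-α (log2 fold change 3.27, SE 0.10, edgeR adjusted p = 8.01e-22) and with both than with IFN-α (3.42, SE 0.10, edgeR adjusted p = 5.55e-22), and was not called between both agents and R848 (0.15). Psma6 gave 1.47, 1.15 and -0.33 in those comparisons.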
